A study of Rattus norvegicus with 39 samples.

Results

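Complex I, complex III and ATP synthase of the mitochondrial inner membrane were followed through 8 of their nuclear genes in rat cerebral cortex. The genes were Ndufv1 (ENSRNOG00000018117), Ndufb3 (ENSRNOG00000011825), Ndufc1 (ENSRNOG00000038218) and Ndufb11 (ENSRNOG00000008329) of complex I, Uqcrq (ENSRNOG00000048174) and Uqcr11 (ENSRNOG00000016952) of complex III, and Atp5j2 (ENSRNOG00000027049) and Atp5o (ENSRNOG00000001991) of ATP synthase. They are 8 of the 26123 Ensembl genes counted, and all 8 were among the 17230 genes tested, those that reached 1 CPM in at least 3 libraries. CPM is the number of reads on a gene, scaled to a common library size. The 8 genes were chosen by measured values, since each is on the study's list of genes that were higher at 28 months in both restricted and lipoic acid fed rats than in rats fed ad libitum. Every difference between 28-month ad libitum libraries and other libraries is therefore given as a description, with no test. The tests read below use libraries of 6 and 12 months, or compare among themselves 28-month diets that played no part in the choice. Fits that also hold the lifelong restricted and lipoic acid fed rats of 28 months are given beside them. Nothing is read from those fits.

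Complex I takes electrons from NADH, and complex III passes them from ubiquinol to cytochrome c. Both pump protons across the inner membrane, and ATP synthase lets the protons back to make ATP. Neurons of the cortex cover most of their energy need in this way, and most subunits of the 3 complexes are encoded in the nucleus. Ndufv1 encodes the core subunit that holds the flavin at which NADH is oxidised, while Ndufb3, Ndufc1 and Ndufb11 encode accessory subunits of the membrane arm. Uqcrq and Uqcr11 encode small supernumerary subunits of the bc1 complex. Atp5j2, now named Atp5mf, encodes subunit f in the membrane part of ATP synthase, and Atp5o, now named Atp5po, encodes the stalk subunit that confers sensitivity to oligomycin.

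The cortex libraries were made from male BN rats, which were fed ad libitum until 2 months of age and then assigned to diets. Ribosomal RNA was depleted from the RNA of pools of 2 rats, and each of the 13 groups of age and diet had 3 pools, 39 libraries in all. Rats fed ad libitum throughout (AL) and rats under caloric restriction throughout (CR, 55% of the AL food intake) gave cortex at the ages of 6, 12 and 28 months, and rats fed ad libitum with α-lipoic acid throughout (AL+LA, 1.5 g of lipoic acid per kg of diet) at 12 and 28 months. At 28 months the study also had rats that changed diet at 12 months, written with ">": CR > AL and AL > CR, and with lipoic acid CR > CR+LA, AL+LA > CR and CR > AL+LA. A pool of 2 rats hides the spread between animals, so p-values measure the spread between pools.

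Promoter stretches are shown for Uqcrq and Atp5o, the genes with a motif match upstream of the start among those that rose under CR at 6 months, because regulators of many respiratory chain genes are known to bind such motifs. RefSeq windows of the GRCr8 build, 250 bases before to 50 bases after the start of the gene, were matched by symbol for 7 of the 8 genes. The 100 bases before the start are printed 5′ to 3′ on the strand of the gene, with motif matches in capitals.
Uqcrq, chr10:38089979-38090078, minus strand: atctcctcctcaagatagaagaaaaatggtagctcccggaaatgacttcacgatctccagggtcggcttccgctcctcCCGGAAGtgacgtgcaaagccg
Atp5o, chr11:44657484-44657583, minus strand: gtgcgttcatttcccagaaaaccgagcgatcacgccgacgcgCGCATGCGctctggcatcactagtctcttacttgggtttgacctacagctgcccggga
In Uqcrq the capitals mark CCGGAAG, a core of the ETS family to which GABP belongs, from −22 to −16, and in Atp5o they mark CGCATGCG, the centre of the NRF1 motif, from −58 to −51, both counted from the base before the start. Searched on both strands, CCGGAAG was in 1 of the 7 windows and in 8.75% of all 33469 RefSeq windows, and CGCATGCG was in 1 of the 7 and in 1.66% of all. AAGATGGCG, a YY1 motif, was in 1 of the 7, the window of Atp5j2, and in 1.73% of all windows. GGGCGG, an Sp1 core, was in 2 of the 7, Ndufc1 and Ndufb11, and in 33.1% of all, and TCAAGGTCA, an ERR motif, was in 0 of the 7 and in 0.433% of all. None of the searched motifs overlapped another in these 7 windows. A match is a description of the letters and not a measured binding site.

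The 9 AL libraries stood apart from the other 30 in ways that touch every comparison with them. Between 27.5% and 36.1% of their reads were not aligned, against 34.1% to 43.2% in the other diets, where 1 of the 30 libraries (28 m AL+LA > CR pool 23) lay within the AL range. The study had sequenced the AL cohort once before and sequenced it again with the other groups, so that AL feeding and the handling of this cohort cannot be told apart. The summed level of 6 cerebellar marker genes (Cbln1, Gabra6, Neurod1, Zic2, Car8 and Fat2) was 431 to 1891 CPM in 5 AL pools (2, 5, 6, 7 and 9) and 31.8 to 119 CPM in the other 34 libraries. Reads on genes numbered 494091 to 5966979 in a library, with 12 m AL pool 5 the shallowest. In that pool Uqcrq had 8 reads, an exact 95% Poisson interval of 7.02 to 32.05 CPM that covers counting error only. Of the cortical markers with a name, Gad1, Sst and Vip of interneurons summed to 268 to 390 CPM and Neurod6 of projection neurons lay at 23.2 to 77.8 CPM over the 39 libraries, so both were detected in each library. Markers of 3 other kinds of cell were lower in each 28 m AL pool than in each of the 30 pools of other diets. Mog of oligodendrocytes was at 89.6, 100.1 and 90.3 CPM in 28 m AL against 105 to 208. Aif1 and Tmem119 of microglia summed to 25.9, 28.1 and 24.3 CPM against 29.9 to 49.8, and Hba-a2 of red blood cells was at 57.7, 52.2 and 77.1 CPM against 108 to 286. Over all 9 AL pools these ranges overlapped those of the other diets. Gfap and Aqp4 of astrocytes summed to 804 to 1741 CPM in AL and 825 to 1611 elsewhere. In the 28 m AL pools their sum was 804, 817 and 841 CPM, at or below the low end of the other diets. Neurod6 was at 39.8, 31.9 and 30.1 CPM in 28 m AL, against 32.6 to 77.8 in the other diets. The interneuron sum of 367, 343 and 360 CPM in 28 m AL lay within the 268 to 383 CPM of the other diets. Markers named here are 1 of 5 for oligodendrocytes, 2 of 5 for microglia, 1 of 4 for red blood cells and 2 of 5 for astrocytes. Fewer cells of a type and less RNA per cell cannot be told apart in such bulk libraries. Counts of the 39 pairs of pools within groups were further apart than counting error gives (chi-square 2.97 to 45.5 for each degree of freedom), so none was 1 library deposited again.

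Across the 13 groups the summed level of the 8 genes fell into a low set, the AL groups, and a high set, all others. Of these groups, 28 m AL, 28 m CR and 28 m AL+LA had served to choose the genes. In the AL pools the sum over the 8 genes was 270.4 to 329.8 CPM at 6 months, 321 to 450.1 at 12 months and 329 to 407 at 28 months, and in the 30 other pools it was 485 to 767 with a median of 582. No AL pool reached the lowest pool of another diet. The 4 AL pools with few cerebellar reads had sums of 314 to 339.9 CPM, and the 5 with many had sums of 270.4 to 450.1. 28 m AL+LA > CR pool 23 had 34.1% of reads not aligned, less than AL pools 5 (36.1%) and 6 (34.4%) and more than the other AL pools. Its sum was 576 CPM. The part of reads not aligned in these sums was not tested.

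**Figure D1:**
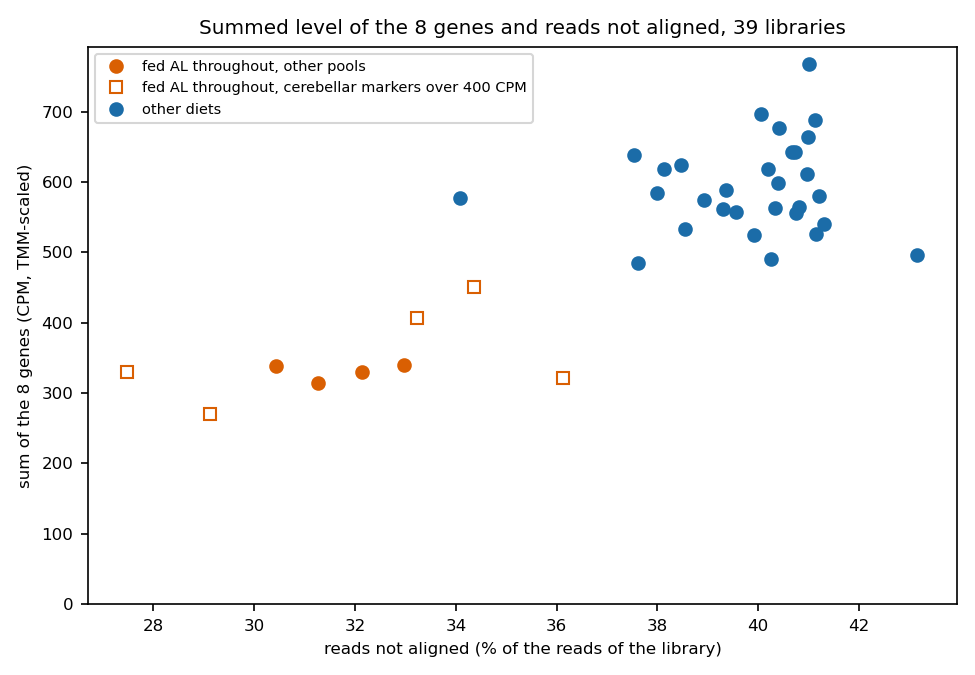
Summed level of the 8 genes (CPM, TMM-scaled) against the share of reads not aligned (%), 1 point per library. The 9 AL libraries (orange, open squares where cerebellar markers sum to more than 400 CPM) lie at 270.4 to 450.1 CPM, and the 30 others (blue) at 485 to 767 CPM.

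By gene, the median of the other 30 pools was 1.35 (Ndufc1) to 2.08 (Uqcrq) times that of the 9 AL pools. Each of the 30 pools exceeded each of the 9 for 3 of the 8 genes, Uqcrq, Uqcr11 and Atp5j2, as for 0.412% of all genes tested. Nothing is read from that count, since 3 of the 9 AL pools served to choose the genes. Uqcrq lay between 16.3 and 45.0 CPM in AL and between 53.3 and 81.5 elsewhere. For Atp5o the ranges were 56.1 to 106 and 103.6 to 184 CPM, and 28 of the 30 exceeded every AL pool. The complex I genes overlapped more, with 10 (Ndufb11) to 15 (Ndufb3) of the 30 pools above every AL pool.

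The order of the groups by mean is a description, since 28 m AL, CR and AL+LA served to choose the genes. In it, the 3 AL groups were the lowest 3 of 13 for 7 of the 8 genes, and the highest group differed from gene to gene. The exception was Ndufc1, where CR > AL+LA at 28 months (17.5 ± 7.20 CPM, SD, n = 3 pools) had a mean just under that of 6 m AL (17.5 ± 2.59). Of the 96 pairs of neighbouring groups in these orders, 6 were further apart than the larger of their SDs. In 4 of these 6, the gap was the step from the AL groups to the rest, for Uqcrq, Uqcr11, Atp5j2 and Atp5o. For Uqcrq, 28 m AL had 41.2 ± 3.96 CPM and the next group, 6 m CR, had 57.9 ± 4.45 CPM. Another gap lay among the AL groups, for Atp5o. Among the other groups, neighbours differed by less than the larger SD except for the lead of CR > AL for Ndufv1 (60.4 ± 2.16 CPM) over the next group (57.9 ± 0.384 in 12 m CR).

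**Figure D2:**
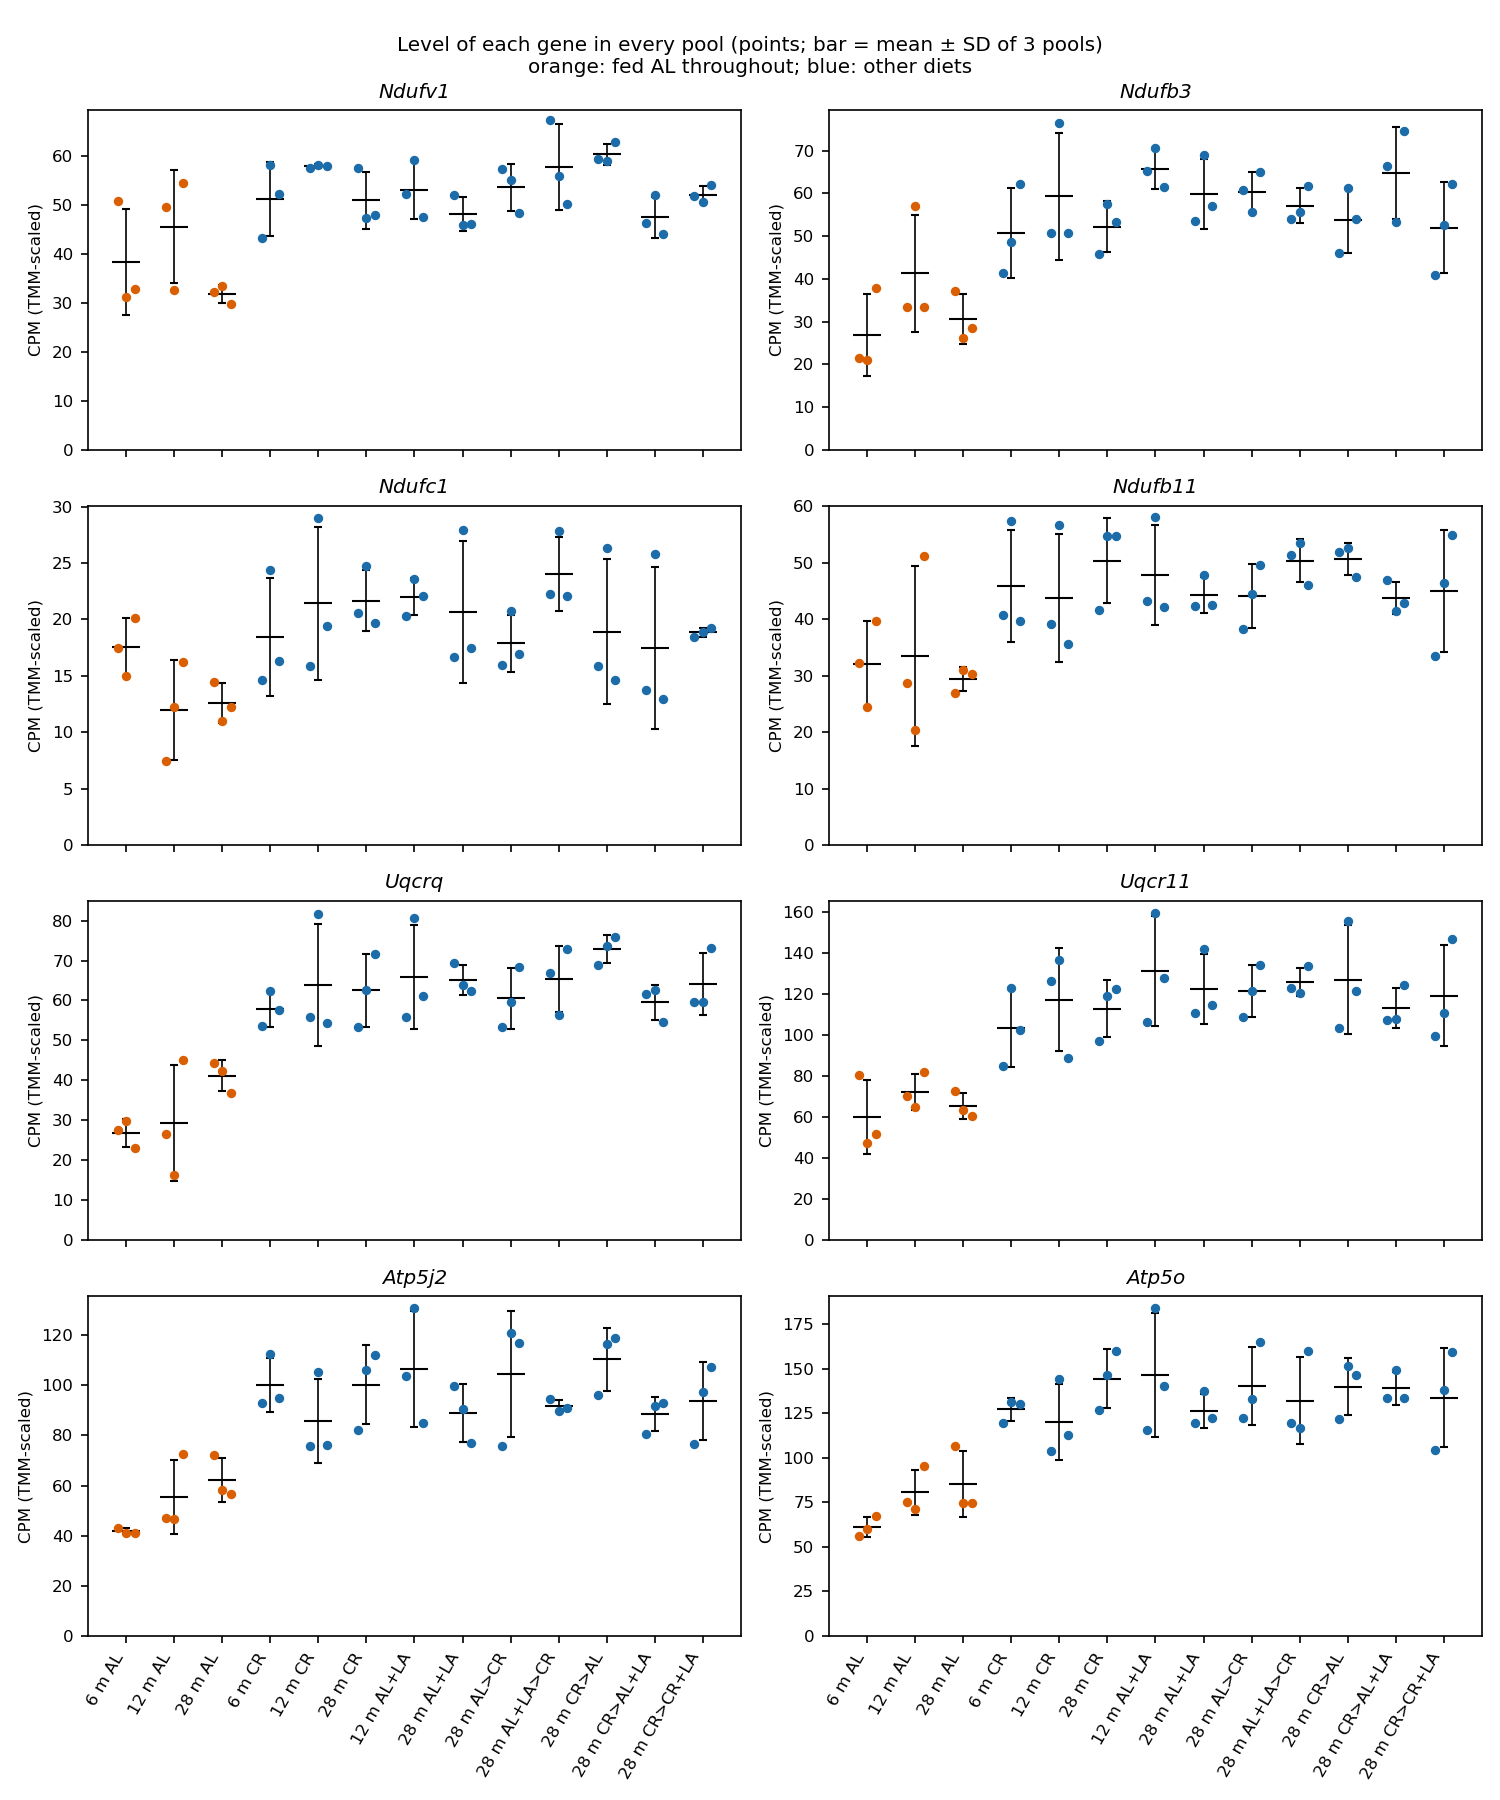
Level (CPM, TMM-scaled, axes from 0) of each of the 8 genes in every pool, by group of age and diet. Points are pools, bars the mean ± SD of 3 pools. The AL pools (orange) are clear of all others for Uqcrq (16.3 to 45.0 CPM against 53.3 to 81.5), and overlap them for Ndufc1.

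At 6 months, 4 months after the diets began, the ATP synthase genes and Uqcrq were about 2-fold higher in CR than in AL cortex. Atp5j2 was at 43.1, 41.2 and 41.1 CPM in the 3 AL pools. In the CR pools it was at 92.8, 112 and 94.8 CPM. The groups did not overlap, and the AL pools of this gene were close to each other. Its log2 fold change (log2 FC) was 1.24 (standard error 0.173, adjusted p = 0.00199, by the quasi-likelihood test in edgeR, adjusted over all genes tested by Benjamini-Hochberg). Atp5o was at 56.1, 59.9 and 67.3 CPM in AL and at 119.6, 131 and 130.4 CPM in CR, and each CR pool was clear of every AL pool. It rose with a log2 FC of 1.04 (standard error 0.168, adjusted p = 0.00327 in edgeR). Uqcrq was at 27.7, 29.9 and 23.1 CPM in AL and at 53.6, 62.4 and 57.6 CPM in CR. Its lowest CR pool was well above its highest AL pool, with a log2 FC of 1.09 (standard error 0.194, adjusted p = 0.00677 in edgeR).

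The other complex III gene, Uqcr11, was at 80.9, 47.6 and 51.7 CPM in 6 m AL and at 84.9, 123 and 103 CPM in 6 m CR. AL pool 1 came close to the lowest CR pool, and the log2 FC of 0.77 had an adjusted p of 0.0721 in edgeR. Without that pool the log2 FC was 1.07 (adjusted p = 0.00866 in edgeR). Ndufb3 was at 21.5, 21.1 and 37.9 CPM in AL and at 41.4, 48.6 and 62.1 CPM in CR. Its groups were apart, with AL pool 3 nearest to CR, and the log2 FC was 0.89 (adjusted p = 0.0747 in edgeR). The other complex I genes had log2 FCs of 0.40 (Ndufv1), 0.50 (Ndufb11) and 0.07 (Ndufc1), each with overlapping pools. In all, 3 of the 8 genes were differentially expressed (DE, adjusted p under 0.05), all higher in CR, while 1.06% of all genes tested were DE and higher in CR. The median log2 FC of the 8 was 0.83, beside −0.01 over all genes tested. The count was 5 with DESeq2, with edgeR's exact test, with all 13 groups in one fit and with no filter on low counts, where Ndufb3 and Uqcr11 also passed. Without AL pool 2, rich in cerebellar markers, the 3 genes had log2 FCs of 1.17 (Uqcrq), 1.23 (Atp5j2) and 1.03 (Atp5o) and remained DE. Without CR pool 12, Uqcrq was not DE (log2 FC 1.10, adjusted p = 0.0515 in edgeR).

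At 12 months all 8 genes were higher in CR than in AL by their fitted values, but 1 of the 8, Uqcrq, was DE. Uqcrq was at 26.6, 16.3 and 45.0 CPM in 12 m AL and at 55.8, 81.5 and 54.3 CPM in 12 m CR. The AL pools were spread widely, with the shallow pool 5 the lowest, and no AL pool reached the CR pools. The log2 FC was 0.996 (standard error 0.249, adjusted p = 0.0357 in edgeR). Of all genes tested, 0.731% were DE and higher in CR. Uqcr11 was at 70.2, 65.1 and 82.1 CPM in AL and at 127, 137 and 88.9 CPM in CR, again apart, with a log2 FC of 0.67 (adjusted p = 0.0629 in edgeR). Atp5j2 was at 47.2, 46.8 and 72.5 CPM in AL and at 75.9, 105 and 76.3 CPM in CR, where AL pool 6 almost met the lowest CR pool. The log2 FCs of the genes that were not DE ran from 0.26 (Ndufv1) to 0.90 (Ndufc1), with adjusted p from 0.0629 to 0.682.

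The median log2 FC of the 8 genes at 12 months was 0.62, beside 0.01 over all genes tested, and the count of DE genes moved with single libraries. Without AL pool 5, Uqcrq had a log2 FC of 0.86 (adjusted p = 0.116 in edgeR) and 0 of the 8 genes were DE, and the count was also 0 without AL pool 4, without CR pool 13 and without CR pool 14. Without AL pool 6, which had the most cerebellar marker reads, 5 of the 8 were DE: Uqcrq, Uqcr11, Atp5j2, Atp5o and Ndufc1. Without CR pool 15 the count was 2, Uqcrq and Uqcr11. With AL pools 5 and 6 both left out, which leaves 1 AL pool whose spread is taken to be that of the CR pools, 2 were DE, Uqcrq with a log2 FC of 1.26 and Ndufc1 with 1.54.

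With both ages in one fit of 12 libraries, the mean CR effect was positive for all 8 genes and 5 of them were DE. These were Atp5j2 (log2 FC 0.93, adjusted p = 0.000175 in edgeR), Atp5o (0.81, adjusted p = 0.000222), Uqcrq (1.06, adjusted p = 0.000388), Uqcr11 (0.73, adjusted p = 0.00361) and Ndufb3 (0.78, adjusted p = 0.00977). Both complex III and both ATP synthase genes were thus among them, and 1 of the 4 complex I genes. Of other genes named from the study's DE lists, 11 of 16 of complex I were DE and higher in this fit. So were 2 of 3 of complex III and 5 of 6 of ATP synthase. No difference between the complexes is read from the 8 genes. Of all genes tested, 3.10% were DE and higher in CR in this fit. Ndufv1 (0.34), Ndufb11 (0.41) and Ndufc1 (0.49) had unadjusted p-values of 0.028, 0.0395 and 0.0353 and did not pass the adjustment in edgeR. Without the AL pools rich in cerebellar markers, the log2 FCs of Uqcrq, Atp5j2 and Atp5o were 1.21, 1.05 and 0.85 and they remained DE, while those of Ndufb3 and Uqcr11 were 0.78 and 0.68 with adjusted p of 0.0614 and 0.0618. Ndufb3 also missed the threshold without 12 m CR pool 14 (adjusted p = 0.052 in edgeR).

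Whether the CR effect itself differed between 6 and 12 months was tested as an interaction of age and diet. None of the 8 genes was DE in edgeR, as 0% of all genes tested. An unadjusted p under 0.05 was found for 2 of the 8, beside 1054 of the 17230 genes tested. Atp5j2 had a CR effect smaller at 12 than at 6 months by a log2 difference of −0.68 (95% interval −1.24 to −0.12, unadjusted p = 0.0201, adjusted p = 0.81 in edgeR). For Atp5o the difference was −0.51 (95% interval −1.01 to −0.02). For Uqcrq it was −0.12, with an interval of −0.81 to 0.57 that reaches both sides of 0. Ndufc1 was the exception in sign, with 0.79 (95% interval −0.12 to 1.71). DESeq2 also called 0 of the 8.

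Levels at 12 months were also higher in rats fed ad libitum with lipoic acid than in AL rats. Against 12 m AL, 5 of the 8 genes rose in 12 m AL+LA: Uqcrq, Uqcr11, Atp5j2, Atp5o and Ndufb3, while 1.71% of all genes tested were DE and higher. The 12 m AL pools are those of the CR comparison, so the comparisons share their controls. Uqcrq was at 55.8, 80.5 and 61.1 CPM in the AL+LA pools, all above the 26.6, 16.3 and 45.0 CPM of AL, with a log2 FC of 1.05 (standard error 0.243, adjusted p = 0.0187 in edgeR). Uqcr11 was at 107, 159.7 and 128 CPM in AL+LA, with a log2 FC of 0.84 (standard error 0.181, adjusted p = 0.0111 in edgeR). Pool 38 was the highest of the AL+LA pools in both genes. Atp5j2 was at 103.6, 131 and 85.0 CPM (log2 FC 0.92, adjusted p = 0.0148 in edgeR). Atp5o was at 75.1, 71.2 and 95.02 CPM in AL and at 115, 184 and 140.4 CPM in AL+LA (log2 FC 0.85, adjusted p = 0.0138 in edgeR). Both ATP synthase genes kept their groups apart. Ndufb3 was at 33.5, 56.9 and 33.3 CPM in AL and at 65.2, 70.6 and 61.4 CPM in AL+LA (log2 FC 0.81, adjusted p = 0.0319 in edgeR).

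Of the genes that did not pass, Ndufc1 had a log2 FC of 0.94 with an adjusted p of 0.0944 in edgeR. Its AL pools, 7.40, 12.2 and 16.3 CPM, rest on 27, 6 and 39 reads, and its AL+LA pools were at 20.3, 23.6 and 22.1 CPM. Ndufb11 (0.42) and Ndufv1 (0.15) had overlapping pools. Without AL+LA pool 38, 0 of the 8 genes were DE and the log2 FC of Uqcrq was 0.87 (adjusted p = 0.15 in edgeR). Ndufb3 was not DE without AL pool 4, without AL pool 6, or without AL+LA pool 37, 38 or 39 (adjusted p 0.0677 to 0.190 in edgeR). Without the shallow AL pool 5 the count was 2, Ndufb3 and Uqcr11. With AL pools 5 and 6 left out it was 6, the 5 genes and Ndufc1, in a fit where AL is the single pool 4 and the AL+LA pools alone give the spread.

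**Figure D3:**
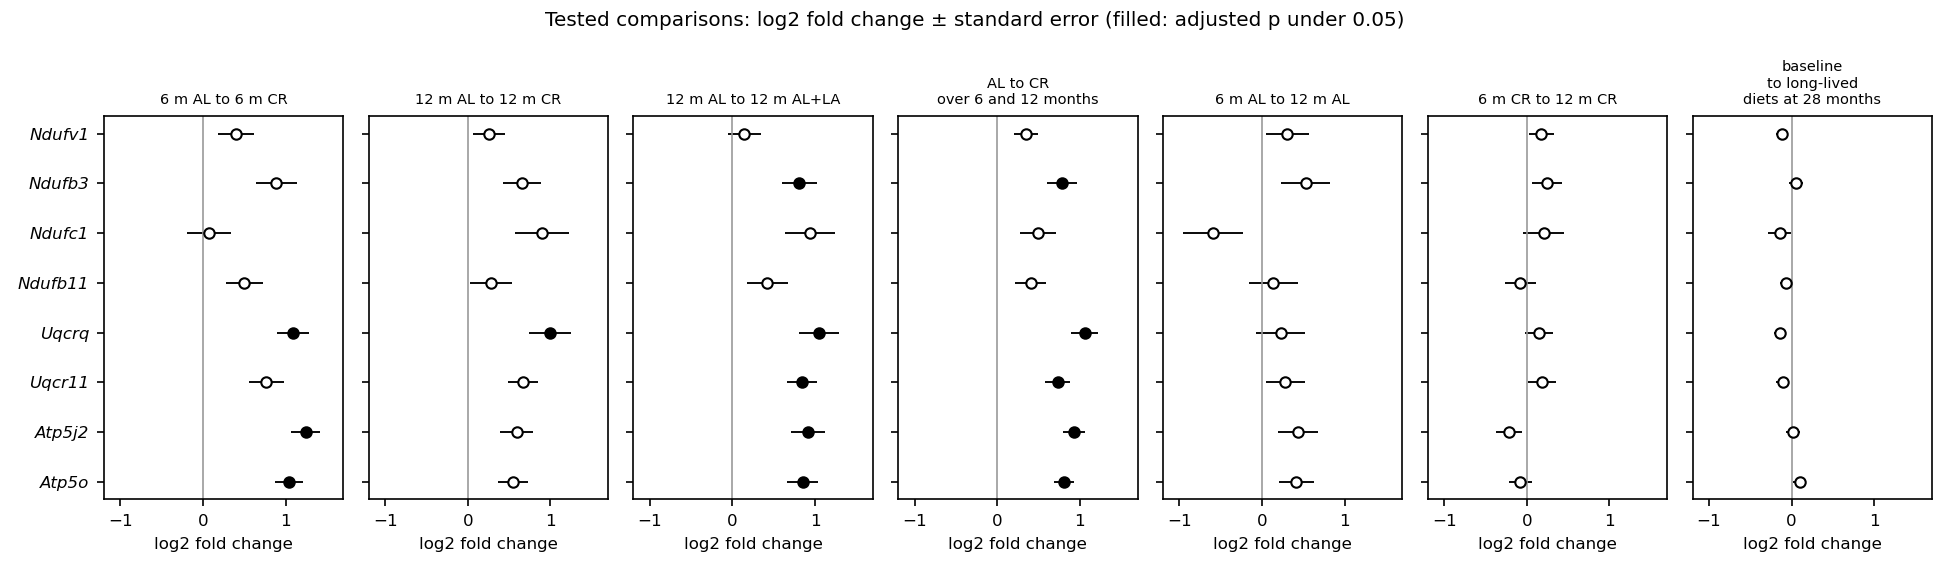
Log2 fold change ± standard error of the 8 genes in 7 tested comparisons, from edgeR fits of the libraries named above each panel. Filled points have an adjusted p under 0.05. Filled points occur in the 4 panels that compare AL with another diet (3, 1, 5 and 5 of the 8 genes), and the long-lived diets at 28 months, here with the CR and AL+LA groups that served to choose the genes, lie within −0.15 to 0.10 of the baseline diets.

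Between 6 and 12 months within a diet, 0 of the 8 genes were DE in edgeR, in AL or in CR, where 0.0987% and 0.0290% of all genes tested were DE. None of the 8 had an unadjusted p under 0.05 in either comparison, and DESeq2 also called 0. In AL the log2 FCs ran from −0.59 (Ndufc1) to 0.53 (Ndufb3). Atp5j2, at 43.1, 41.2 and 41.1 CPM in 6 m AL and 47.2, 46.8 and 72.5 in 12 m AL, had fully separate pools and a log2 FC of 0.44 (95% interval −0.06 to 0.93). Atp5o also had separate pools in AL (log2 FC 0.42). For this pair of groups the share of all genes with separate pools was not computed, so nothing is read from these separations. In CR the log2 FCs ran from −0.22 (Atp5j2) to 0.24 (Ndufb3), and no gene had separate pools.

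At 28 months the 8 genes had been selected on their difference from AL, and their values are a description. Uqcrq was at 44.5, 42.3 and 36.8 CPM in the 28 m AL pools, and over the 21 pools of the other 7 diets it had a lowest value of 53.3, a median of 62.5 and a highest value of 76.0 CPM. Ndufv1, the flavin subunit, was at 32.2, 33.4 and 29.9 CPM in 28 m AL and at 44.0 to 67.4 CPM elsewhere. For 6 of the 8 genes all 21 pools exceeded all 28 m AL pools. The others were Atp5o, where 20 of 21 did, and Ndufc1, where 19 did. The share over all genes was not computed for this count. Nothing is read from it, since 28 m AL served to choose the genes. For Ndufc1, the 28 m AL pools were at 14.5, 11.0 and 12.3 CPM and those of CR > AL+LA at 13.7, 25.8 and 12.96 CPM, with 1 of the latter well above the rest.

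All 8 genes had positive log2 FCs from 28 m AL to each of the 7 other diets, in comparisons that share the 3 AL pools. Mog, the microglial markers and Hba-a2 were lower in these 3 AL pools in the same way, and their part in the difference was not tested. The median log2 FC of the 8 genes was 0.78 in CR, 0.63 in AL+LA, 0.73 in AL > CR and 0.82 in AL+LA > CR. It was 0.83 in CR > AL, 0.57 in CR > AL+LA and 0.64 in CR > CR+LA, beside −0.02 to 0.00 over all genes tested. Pools were fully apart and higher than 28 m AL for all 8 genes in 5 diets, for 7 of 8 in CR > AL+LA (not Ndufc1) and for 7 of 8 in CR > CR+LA (not Atp5o). Over all genes tested the share with every pool higher than 28 m AL was 11.7% in CR, 12.3% in AL+LA, 11.4% in AL > CR, 11.8% in AL+LA > CR, 13.5% in CR > AL, 12.1% in CR > AL+LA and 12.5% in CR > CR+LA, and nothing is read from the counts of the 8. Without 28 m AL pools 7 and 9, which carried the cerebellar reads, the medians lay between 0.64 and 0.89.

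Single genes ranked differently among the diets. Ndufb3 had its largest log2 FC in CR > AL+LA (1.06, standard error 0.173), where the other membrane arm genes had 0.48 (Ndufc1) and 0.57 (Ndufb11). Uqcr11 had log2 FCs from 0.77 to 0.96 over the 7 diets, and Atp5j2 from 0.50 to 0.84. In lifelong CR the 8 genes lay close together, between 0.62 (Uqcrq) and 0.79 (Uqcr11).

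The 5 diets that changed at 12 months had not served to choose the genes, and were compared among themselves over 15 libraries, in a test added after seeing the data. In an F test 0 of the 8 genes were DE in edgeR, where 0.110% of all genes tested were, and 0 had an unadjusted p under 0.05. The lowest unadjusted p was 0.113 for Ndufv1 (adjusted p = 0.961 in edgeR), which ranged from 47.5 ± 4.16 CPM in CR > AL+LA to 60.4 ± 2.16 CPM in CR > AL (SD, n = 3 pools). With CR and AL+LA in the fit as well, 21 libraries in all, 0 of the 8 were DE and 0 had an unadjusted p under 0.05, against 0.0754% of all genes DE. Nothing is read from that fit, since the genes were chosen for high values in both of those diets. Over all 7 diets the ratio of the highest to the lowest mean was 1.13 (Uqcr11) to 1.37 (Ndufc1).

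The study groups CR, AL > CR and CR > AL+LA as long-lived and AL+LA, AL+LA > CR and CR > AL as baseline in survival. Since CR and AL+LA had served to choose the genes, the classes were compared over the 12 libraries of the other 4 diets, again in a test added after seeing the data. None of the 8 genes was DE in edgeR, while 0.151% of all genes tested were. In the same test 3 of the 8 had an unadjusted p under 0.05, all lower in the long-lived diets. The share of all genes under that unadjusted threshold was not computed, so nothing is read from the count of 3. Ndufv1 had a log2 FC of −0.22 (95% interval −0.41 to −0.03, unadjusted p = 0.0229, adjusted p = 0.528 in edgeR). Uqcrq had −0.20 (95% interval −0.38 to −0.01, unadjusted p = 0.0377, adjusted p = 0.611 in edgeR), and Ndufb11 had −0.20 (95% interval −0.40 to −0.01, unadjusted p = 0.0404, adjusted p = 0.62 in edgeR). The other complex I genes differed in sign, with 0.17 for Ndufb3 and −0.26 for Ndufc1. Ndufc1 had the widest interval, −0.60 to 0.08, and the ATP synthase genes lay at −0.07 (Atp5j2) and 0.04 (Atp5o). With CR and AL+LA in the classes, over 18 libraries, 0 of the 8 were DE and 0 had an unadjusted p under 0.05, against 0.0348% of all genes DE. In that fit the choice of the genes enters both classes and nothing is read from it. The AL and CR > CR+LA rats were in neither class.

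Between the ages of one diet, the log2 FCs of the 8 genes spanned the widest range in AL. Standard errors of the comparisons with 28 months were also larger in AL (0.182 to 0.338) than in CR (0.129 to 0.216). The wider range is therefore not read as a larger change with age. From 6 to 28 months in AL the log2 FCs ran from −0.47 (Ndufc1) to 0.62 (Uqcrq). Uqcrq, Atp5j2 and Atp5o were higher in every 28 m AL pool than in every 6 m AL pool, and Ndufc1 was lower in every one. The share of all genes with pools apart in this way was not computed, so nothing is read from these separations. Uqcrq was at 44.5, 42.3 and 36.8 CPM in the former and 27.7, 29.9 and 23.1 in the latter. From 12 to 28 months in AL the range was −0.58 (Ndufv1) to 0.38 (Uqcrq). In CR the log2 FCs ran from −0.02 to 0.20 between 6 and 28 months and from −0.18 to 0.27 between 12 and 28 months. In AL+LA all 8 were lower by their fitted values at 28 than at 12 months, with log2 FCs of −0.27 (Atp5j2) to −0.03 (Uqcrq). No test is given, as the 28-month groups served to choose the genes.

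Other subunits of the chain are described from lists of symbols, of which a part could be named. Names come from the study's tables of DE genes, so a named gene had been DE in at least 1 comparison of these libraries, and the counts are not an independent sample of the pathway. Of 33 other nuclear complex I genes 16 were named, and 7 of the 16 rose from 6 m AL to 6 m CR, with a median log2 FC of 0.78 beside −0.01 over all genes tested. At 12 months 1 of the 16 rose in CR (median 0.44) and 8 rose in AL+LA (median 0.79), and none fell. Ndufa3, an accessory subunit, had log2 FCs of 1.54 at 6 months (adjusted p = 0.00202 in edgeR) and 0.75 at 12 months (adjusted p = 0.269 in edgeR) in CR. Ndufab1, the mitochondrial acyl carrier protein, had a log2 FC of 0.80 at 6 months that did not pass (adjusted p = 0.103 in edgeR), and rose by 1.19 in 12 m AL+LA. Ndufb7, of the membrane arm, rose by 0.99 in 12 m AL+LA.

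In complex III, 3 of 7 other genes were named, and Uqcrb, a subunit near the quinone site, rose in all 3 comparisons with AL at 6 and 12 months. Its log2 FCs were 1.14 in 6 m CR, 1.24 in 12 m CR and 1.43 in 12 m AL+LA, with adjusted p of 0.0133, 0.00228 and 0.000305 in edgeR. Uqcr10 rose in 12 m AL+LA (1.55). The core protein gene Uqcrc1, 1 named gene of the complex, was lower there than in 12 m AL. Its log2 FC was −0.80 (adjusted p = 0.00822 in edgeR), and it was singled out after its values were seen. In 12 m CR its log2 FC was −0.60 (adjusted p = 0.0534 in edgeR). The mean of Uqcrc1 was highest in 12 m AL, at 123.4 CPM. Means of the other groups ran from 56.98 (6 m AL) to 82.04 CPM (12 m CR), with 12 m AL+LA at 70.99 CPM. Nothing about lipoic acid is read from the call. Of 17 other ATP synthase genes 6 were named, and 2, 2 and 3 of them rose in 6 m CR, 12 m CR and 12 m AL+LA. Atp5i, subunit e and thus a neighbour of subunit f in the membrane, had log2 FCs of 1.62, 1.11 and 1.52 and passed at 6 m CR and 12 m AL+LA. Atp5c1, the gamma subunit that turns in the stalk, was 1 of the 6 genes DE between baseline and long-lived diets over 18 libraries, higher in the latter (log2 FC 0.48, adjusted p = 0.0292 in edgeR), and was singled out after its values were seen. Its mean was highest in 28 m AL, at 88.1 CPM, a group in neither class and without extended survival in the study. The long-lived diets had 74.6 (CR), 76.1 (AL > CR) and 77.7 CPM (CR > AL+LA), and the baseline diets 47.6 to 62.2 CPM. With AL included, the order of these means was not that of survival. Nothing is read from the call, since Atp5c1 was named from the study's DE lists of these libraries.

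Of 16 nuclear genes of complex IV, which passes electrons to oxygen, 9 were named and 6, 1 and 5 of them rose in 6 m CR, 12 m CR and 12 m AL+LA. The 3 named mitochondrially encoded genes (ND3, COX2 and ATP8) had medians of −0.13, −0.33 and −0.13 in the same comparisons, and none rose. ATP8 fell in 12 m CR, with a log2 FC of −0.80 (adjusted p = 0.00997 in edgeR), and was singled out after its values were seen. Of complex II 1 of 4 genes was named and of the complex I assembly factors 2 of 13, none DE in these comparisons, and 0 of 17 regulators had a name. Of 43 named Rpl and Rps genes, which encode proteins of the cytosolic ribosome, 28, 10 and 17 rose and none fell, with medians of 0.96, 0.54 and 0.64. Of 17 named Mrpl and Mrps genes of the mitochondrial ribosome 3, 0 and 2 rose, with medians of 0.61, 0.45 and 0.55. Many ribosomal protein genes have near-identical copies, and reads that mapped to more than 1 place were not counted, so their levels are uncertain.

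At 28 months the list genes with the smallest adjusted p from AL to CR had the log2 FCs that follow, as a description, since the study listed them from these libraries. In complex I they were 2.00 (Ndufa3), 1.14 (Ndufab1) and 1.36 (Ndufb7), and in complex III 1.42 (Uqcrb) and 0.88 (Uqcr10). In complex IV they were 0.90 (Cox6a1), 1.25 (Cox6b1) and 0.97 (Cox8a), and in ATP synthase 1.35 (Atp5i) and 0.67 (MP68). COX2, encoded in the mitochondrion, had 0.55. Of the cytosolic ribosome Rpl8 had 1.90, Rpl35 1.75 and Rps26 1.72, and of the mitochondrial ribosome Mrps18a had 1.59, Mrps15 1.28 and Mrps35 0.95. The 8 genes, at 0.62 to 0.79, lay below most of these, which had been picked for the smallest p.

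**Figure D4:**
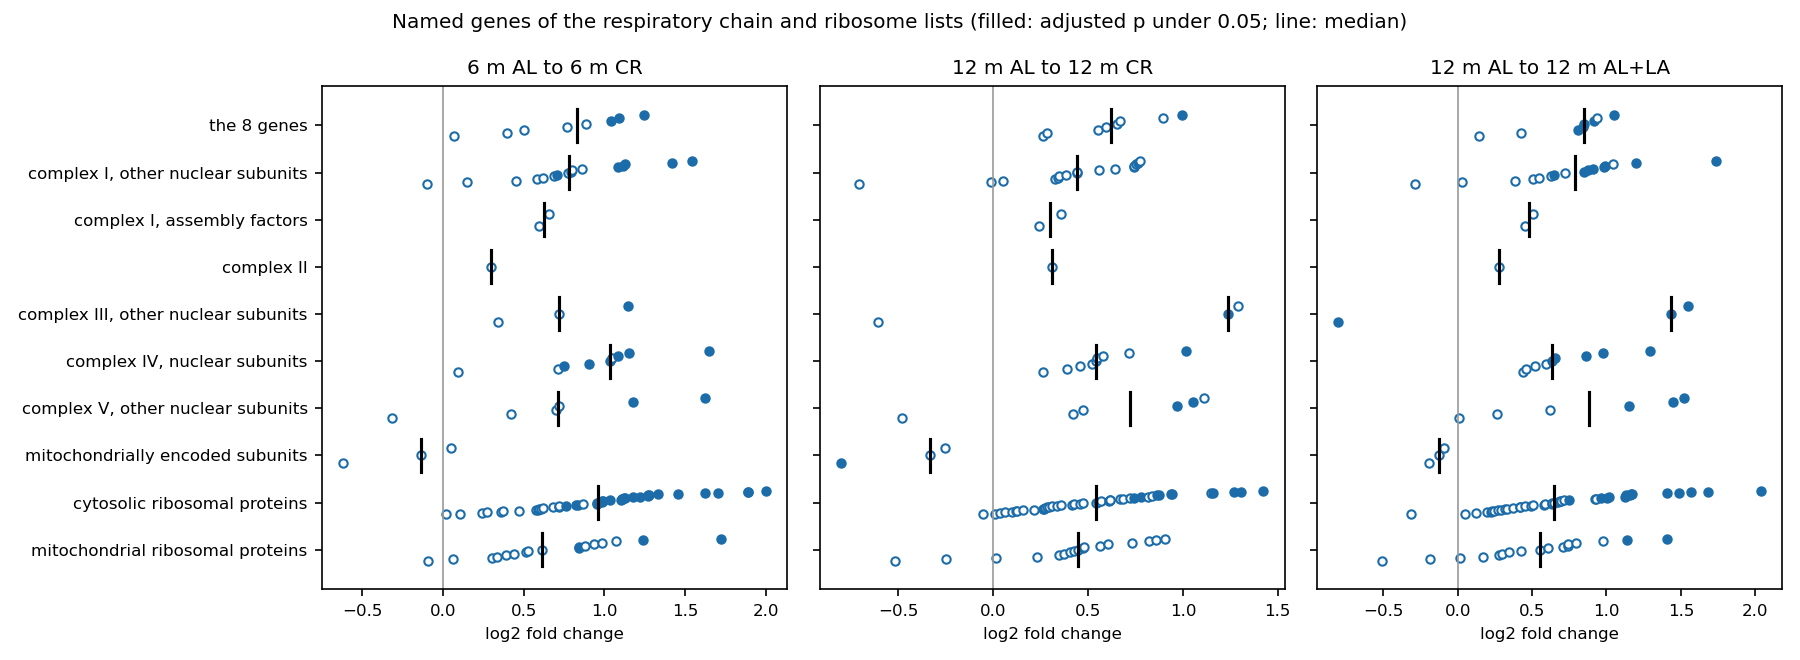
Log2 fold change of the 8 genes and of the named genes of 9 lists in 3 comparisons with AL at 6 and 12 months (edgeR). Each point is a gene, filled where its adjusted p is under 0.05, and the line marks the median. The 8 genes have medians of 0.83, 0.62 and 0.85, and the mitochondrially encoded genes have medians below 0 in each panel.

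Across the 39 libraries the 8 genes moved together, as a description over libraries that share groups, depth and cohort. Pearson's r of log2 CPM between pairs of the 8 had a median of 0.708 over 28 pairs (0.453 to 0.932). With the mean of each group subtracted the median was 0.447 (−0.40 to 0.714). The 5 genes most like the mean of the 8 over the 39 libraries were ENSRNOG00000034161, which has no name in the tables used (r = 0.947), Atp5i (r = 0.943), RPL38 under ENSRNOG00000048701, 1 of several identifiers with that name (r = 0.939), Rps29 (r = 0.938) and Uqcrb (r = 0.936). With group means subtracted their r was 0.772, 0.737, 0.769, 0.715 and 0.626. Reads not aligned and the AL groups move with all of these values, and their part was not tested.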

How the data were processed

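RNA of rat cerebral cortex, depleted of ribosomal RNA, was sequenced on the SOLiD 5500xl. The authors aligned reads with Bowtie to Rnor_5.0, leaving out reads with several matches, and counted them per Ensembl gene with HTSeq-count. The values deposited by the authors are raw counts, 1 table per library. Rows for reads not aligned (27.5% to 43.2% of reads) and for aligned reads outside annotated genes (79.9% to 84.0% of aligned reads) were left out of library sizes and tests.

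Genes with at least 1 CPM in at least 3 libraries were kept (17230 of 26123) and scaled by TMM. Each comparison was fitted to its own libraries with the quasi-likelihood test of edgeR 4.0.16 (R 4.3.3, limma 3.58.1) and adjusted by Benjamini-Hochberg over all genes tested. A gene was DE at an adjusted p under 0.05. The scripts were tested on simulated data with known changes. Alternatives were DESeq2 1.42.0, its size factors, the exact test of edgeR, other filters, 1 fit of all groups and leaving out each pool.

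The 8 genes and all lists were chosen with earlier results of these data known. Beside the 8, the text names the 5 genes most like their mean, up to 3 genes per list with the smallest adjusted p from 28 m AL to 28 m CR, marker genes, and genes said to be singled out. Names were taken from the study's tables and covered 1664 identifiers. Levels of different genes were not compared, since gene lengths were not used.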

Additional observations from a re-analysis of the deposited data

How the results depend on the processing

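With 6 m AL and 6 m CR, 5 of the 8 genes were DE with no filter on low counts, with all 13 groups in one fit, with DESeq2 and with the edgeR exact test, against 3 in the report. For 12 m AL and 12 m CR the count of 1 became 2 with no filter, all 13 groups or the exact test, and 0 where at least 10 counts were required in every library, which removed Uqcrq and Ndufc1 from the test. Leaving out each pool in turn gave 0 to 5 DE genes there, and 0 to 6 for 12 m AL and 12 m AL+LA. Leaving out the AL pools rich in cerebellar markers, an alternative chosen after seeing the data, gave 2 for 12 m CR and 3 for CR over both ages. It also reversed the sign of values that were not DE: Ndufc1 in 6 m CR (−0.026), Ndufb11 from 6 to 12 m AL (−0.31), and the difference in the CR effect for Ndufb3 (0.071), Ndufb11 (0.25), Uqcrq (0.084) and Uqcr11 (0.10). Leaving out 1 pool reversed some log2 FCs that were not DE. Ndufc1 in 6 m CR ran from −0.17 to 0.26. From 6 to 12 m AL, Ndufb11 ran from −0.29 to 0.32 and Uqcrq from −0.19 to 0.40. From 6 to 12 m CR, Ndufb11 ran from −0.31 to 0.13, Atp5o from −0.23 to 0.019, Ndufc1 from −0.082 to 0.49 and Uqcrq from −0.072 to 0.25. For the difference in the CR effect, Ndufb11 ran from −0.44 to 0.19, Uqcr11 from −0.40 to 0.084 and Uqcrq from −0.30 to 0.29, and for long-lived diets Atp5j2 ran from −0.029 to 0.080. Without 28 m CR and 28 m AL+LA, also chosen after seeing the data, Atp5j2 for long-lived diets was −0.067. The cause was not tested.

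Over all genes, 379 were DE in 6 m CR, against 759 with no filter, 1375 with all 13 groups, 619 with the exact test and 150 without the cerebellar-rich pool. In 12 m CR it was 372, against 733 with no filter, 857 with all groups and 242 without those pools. In 12 m AL+LA it was 547, against 1006 with no filter, 352 with at least 10 counts and 1207 with all groups. From 6 to 12 m AL it was 17, against 69, 6 and 41 in the same order, and in CR 5, against 223, 0 and 0, with 53 by the exact test. For CR over both ages it was 1167, against 2379 with all groups and 525 without those pools. The interaction had 0, against 127 with no filter, 4 with all groups and 6 with DESeq2, the 7 diets 13, against 275 and 0, and the long-lived diets 6, against 85 and 0 with no filter and with all groups, and 26 without 28 m CR and 28 m AL+LA. The median log2 FCs from 28 m AL kept their sign under every alternative run. No paired analysis was possible because the pool numbers differ between groups. Depth limits 12 m AL pool 5 most, with 494091 reads on genes.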
